A study of Mus musculus with 6 samples.

Results

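SALL4 is a zinc-finger protein of mouse embryonic stem cells, and the sites described here are the places where it was mapped inside very long protein-coding genes. They were chosen in 3 steps. Overlapping lines of each peak list were merged, regions called in both wild-type lists and overlapping no knockout interval were kept as the consensus, and of these the regions on chromosomes 1 to 19 whose midpoint lay in a coding gene of at least 500 kb, more than 500 bp from either gene end, were taken. This gave 1847 sites of 37997 consensus regions, which is 4.86% of all regions and 5.07% of the 36443 on chromosomes 1 to 19. The sites are spread over 216 genes, of which 13 held none.

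The maps come from CUT&RUN. In this assay a nuclease is tethered to an antibody on chromatin, and the short pieces of DNA it releases are sequenced. Embryonic stem cells of a Sall4 F/F line, which carries intact Sall4 alleles with flanking recombination sites and which the titles call wild type (WT), were compared with a Sall4 -/- line (KO). Both lines were grown in the same medium with LIF and kinase inhibitors, and each gave 2 SALL4 libraries, made with the antibody clone EE-30. Each genotype is 1 line, so the genotype and any other difference between the lines cannot be told apart, and the labels do not say whether the libraries of a line came from separate cultures, so the spread between them may be technical. The labels also list 1 IgG library per line, which is not analysed here.

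As background, SALL4 binds DNA through clusters of zinc fingers, and one of these clusters prefers short AT-rich motifs. The protein is also known to recruit the NuRD complex, which removes histone acetylation and remodels nucleosomes, and it helps keep stem cells from early differentiation towards neurons. Genes of such length consist almost wholly of introns. Many of them encode adhesion molecules, receptors and channels of neurons, and a number of them host common fragile sites, stretches that break when DNA replication is slowed.

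Where a site falls on a promoter, the sequence shows what kind of DNA was called. Of 271 promoter windows of these genes in the RefSeq table (GRCm38.p6, each 300 bp, from 250 bp before to 50 bp after a transcription start), 157 lay inside the gene, as starts of shorter transcripts. Of those internal windows 8 overlapped a consensus region, which is 5.10%, against 964 of 31396 windows of chromosomes 1 to 19, or 3.07%. In the replicates' own lists 4.46% and 5.73% of the internal windows were overlapped, against 4.27% and 3.61% of all windows. Of the other 114 windows, at the gene ends, 1 was overlapped (0.877%), so that over all 271 windows the share was 3.32%. These differences were not tested. The 4 windows below are those with the most bases inside a site. Sequence of the build of the files was used here for such windows only. Each is the 250 bases before the start, 5′ to 3′ on the gene's strand, with the bases inside the SALL4 region in capitals.
Fhit (chr14:10453459-10453708, minus strand): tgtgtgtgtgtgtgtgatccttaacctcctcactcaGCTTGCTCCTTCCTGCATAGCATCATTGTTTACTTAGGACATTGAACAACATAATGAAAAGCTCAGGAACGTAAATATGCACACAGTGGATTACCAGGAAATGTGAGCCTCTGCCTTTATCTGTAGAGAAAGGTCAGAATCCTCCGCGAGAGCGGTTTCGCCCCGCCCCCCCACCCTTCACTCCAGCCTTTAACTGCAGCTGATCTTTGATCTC
Magi2 (chr5:19907268-19907517, plus strand): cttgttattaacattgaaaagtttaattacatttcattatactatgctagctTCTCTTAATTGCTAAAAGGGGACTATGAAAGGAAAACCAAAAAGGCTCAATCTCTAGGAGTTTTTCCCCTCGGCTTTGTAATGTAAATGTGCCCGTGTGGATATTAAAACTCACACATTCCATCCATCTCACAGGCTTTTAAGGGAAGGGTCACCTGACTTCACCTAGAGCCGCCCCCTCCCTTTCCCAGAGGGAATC
Foxp1 (chr6:99266516-99266765, minus strand): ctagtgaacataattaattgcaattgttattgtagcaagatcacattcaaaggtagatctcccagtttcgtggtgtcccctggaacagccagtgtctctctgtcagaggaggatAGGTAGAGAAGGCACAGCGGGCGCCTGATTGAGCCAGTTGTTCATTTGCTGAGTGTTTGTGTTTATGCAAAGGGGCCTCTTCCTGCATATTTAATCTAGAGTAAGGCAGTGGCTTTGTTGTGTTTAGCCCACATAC
Mgat4c (chr10:102374187-102374436, plus strand): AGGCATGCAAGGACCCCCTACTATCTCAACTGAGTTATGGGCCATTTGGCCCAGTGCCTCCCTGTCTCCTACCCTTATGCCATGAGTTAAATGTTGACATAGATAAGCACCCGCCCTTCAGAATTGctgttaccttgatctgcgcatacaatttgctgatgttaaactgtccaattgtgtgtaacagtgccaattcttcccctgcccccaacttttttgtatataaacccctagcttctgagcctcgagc

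Fhit encodes a diadenosine triphosphate hydrolase and hosts a fragile site, Magi2 a scaffold of cell junctions and synapses, Foxp1 a forkhead transcription factor, and Mgat4c a glycosyltransferase. The authors' fold enrichments of these 4 sites (summit over local background) in replicates 1 and 2 were 10.3 and 4.08 in Fhit, 9.58 and 9.42 in Magi2, 6.89 and 4.08 in Foxp1, and 4.82 and 3.40 in Mgat4c. The bases inside the site had an A+T content of 51.9% in Fhit, 54.0% in Magi2, 52.9% in Foxp1 and 50% in Mgat4c. Both strands of the 300 bp windows were searched for the AT-rich word AATATT, for its shifted form ATATTA and for the word TATTAA, all of which can overlap one another. Among the 13 windows overlapped by a member site, those of nested genes included, AATATT was found in 0, ATATTA in 1 and TATTAA in 1, and the last 2 were in the same window, that of Magi2. The shares among all 31396 windows were 6.72%, 7.33% and 8.76%. The letters at most of the 1847 sites were not examined, so these few windows say nothing of the others.

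The first comparison asked whether intervals inside very long genes depend on Sall4. The wild-type lists held 2564 and 2332 intervals inside the 216 genes, and the knockout lists held 0 and 0. The mean in wild type was 2448 ± 164 intervals (SD, n = 2), and the genotypes did not overlap. On the scale of log2(number + 1) the difference was 11.26, against an SD of 0.0967 between the wild-type libraries, and its size depends on the 1 added to the knockout counts. The two-sided p over all reassignments of the 4 libraries was 0.333 (exact permutation test), which is the smallest that 2 against 2 allows. The knockout lists held 34 and 39 intervals in all and 0 on chromosomes 1 to 19. The wild-type lists held 52825 and 46298 there, so the difference is not particular to very long genes. Since regions that overlap a knockout interval were left out by the rule, this count was made on all intervals of each list.

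Very long genes held fewer sites per length than every other class of sequence compared. Inside them the density was 1.03 consensus sites per 100 kb (exact 95% Poisson interval 0.980 to 1.07, for counting error only). The interiors of 729 coding genes of 200 to 500 kb held 1.80 per 100 kb (1.75 to 1.86), those of 100 to 200 kb 2.39, those of 50 to 100 kb 2.38 and those under 50 kb 1.69. Sequence in no coding gene held 1.30 per 100 kb (1.28 to 1.32), and the 200 kb beside the long genes held 1.56 (1.47 to 1.64). The replicates' own lists gave the same place at the bottom, with 1.43 and 1.30 intervals per 100 kb inside very long genes, 2.61 and 2.30 in genes of 200 to 500 kb, 1.83 and 1.61 in no coding gene, and 2.16 and 1.91 beside the long genes. The density inside very long genes was thus 0.570 times that in genes of 200 to 500 kb in the consensus, and 0.546 and 0.563 times in replicates 1 and 2. It was 0.660 times the density beside the genes, and 0.659 and 0.678 times in the replicates. These ratios pool all sites of a class. The median gene of 500 kb or longer held 0.738 sites per 100 kb, against 0.995 for genes of 200 to 500 kb. No site was held by 6.02% and 15.0% of these genes. The intervals of the classes did not overlap that of the very long genes. No test of the difference was run, because sites of 1 gene share their surroundings and are not replicates. Sequence that cannot be mapped was not taken out of the lengths, as no genome sequence beyond the promoter windows was used here.

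**Figure D1:**
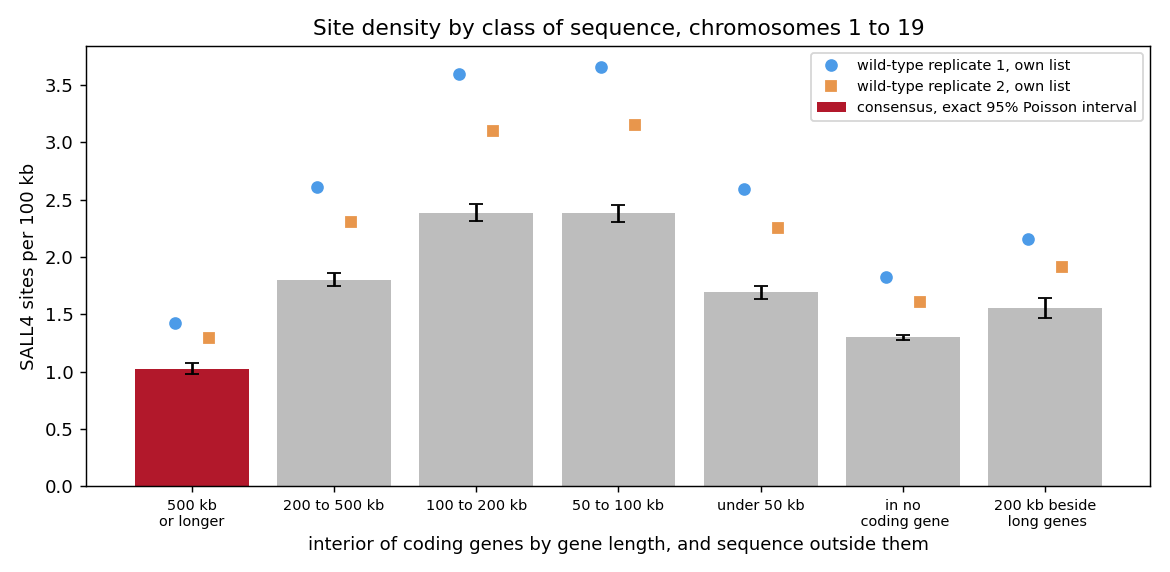
Number of SALL4 sites per 100 kb (y axis) in the interior of coding genes grouped by length, in sequence outside coding genes and in the 200 kb on each side of the very long genes (x axis), on chromosomes 1 to 19. Bars are consensus sites with exact 95% Poisson intervals, and points are the intervals of wild-type replicates 1 and 2; the red bar of genes of 500 kb or longer, at 1.03, is the lowest, and so are its points.

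The low density was not shared evenly by the 216 genes. The density ranged from 0 to 8.73 sites per 100 kb, with a median of 0.738 and quartiles of 0.350 and 1.44, against 1.52 over chromosomes 1 to 19. Of the genes, 165 lay below that value and 51 above it. The median gene of shorter classes also lay below it, at 0.995 per 100 kb for 200 to 500 kb and 1.25 for 100 to 200 kb. The 10 densest of the 216 genes held 373 sites, or 20.2% of all, on 3.94% of the length, while the 108 least dense held 19.3% on 52.5% of the length. Densities of the genes in replicates 1 and 2 ranked alike (Spearman's rho 0.963 across the 216 genes, which share libraries and are not independent). Density had no clear relation with gene length within this group (rho -0.0760) and a moderate one with the density in the 200 kb beside the gene (rho 0.371). Of the genes, 136 were less dense than their own flanks and 77 were denser.

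**Figure D2:**
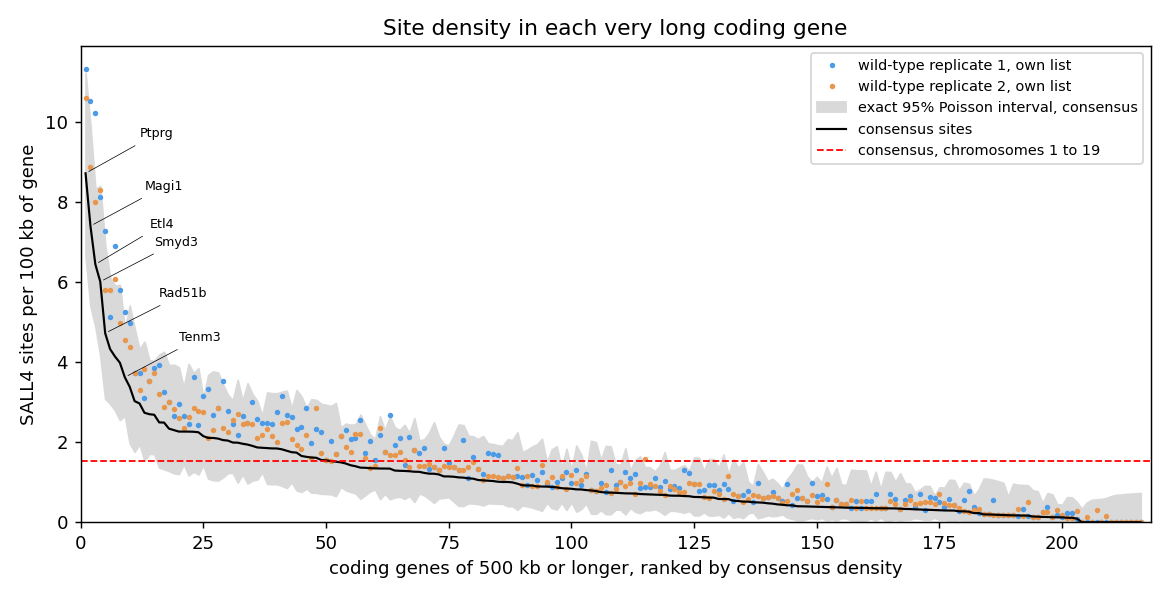
Sites per 100 kb (y axis) in each of the 216 coding genes of 500 kb or longer, ranked by consensus density (x axis). The black line is the consensus with its exact 95% Poisson interval in grey, points are the 2 wild-type replicates, the dashed red line is the mean of chromosomes 1 to 19 at 1.52, and the curve falls from 8.73 in Ptprg to 0 in 13 genes.

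Each coding gene was set against the mean density of chromosomes 1 to 19 with a two-sided exact Poisson test, adjusted by the Benjamini-Hochberg method over all 19273 genes tested. Of the 216 very long genes, 9 were called denser (4.17%), against 2.28% of all coding genes and 9.47% of genes of 200 to 500 kb. Called less dense were 47 (21.8%), against 0.244% of all coding genes. All 47 such calls among coding genes fell on very long ones, and most shorter genes have too few expected sites to be called, so their share cannot be compared between lengths. The test counts only counting error, whereas the variance of the site numbers over the 216 genes was 9.46 times their mean. A negative binomial test, which takes in that spread between genes, called 0 genes denser and 0 less dense (2 and 0 at an unadjusted p under 0.05). With its fitted dispersion of 1.3, not even 0 sites in the gene with most expected (34.5, Ptprd) would give an unadjusted p under 0.05. Its result of 0 less dense was thus fixed in advance and decides nothing about these genes. With sites limited to those of a −log10 q of 10 or more (the strict q-value), the exact Poisson test called 3 and 0 (14 and 20 at an unadjusted p under 0.05), and against the 200 kb on each side of each gene an exact binomial test called 1 and 11. Without replicate 2 the number called less dense was 82.

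The genes with most sites encode receptors, scaffolds, enzymes and cell-surface proteins. Ptprg, a receptor-type tyrosine phosphatase (chr14:11553440-12242041), led with 60 consensus sites, and replicates 1 and 2 held 78 and 73 intervals there. Its density of 8.73 per 100 kb (exact 95% Poisson interval 6.66 to 11.2) was 5.73 times the mean of chromosomes 1 to 19 (adjusted p = 3.49e-22, exact Poisson test). Its flanks held 10 sites in 400 kb, or 2.5 per 100 kb, and it was the 1 gene still called denser when its flanks were the standard (adjusted p = 0.0129, exact binomial test).

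Etl4, a gene active in the notochord and needed for normal intervertebral discs (chr2:19910207-20810535), held 58 sites, with 92 and 72 intervals in the replicates. Magi1, a scaffold of epithelial junctions (chr6:93675453-94283929), held 45, with 64 and 54. Smyd3, a lysine methyltransferase (chr1:178951960-179518053), held 34, with 46 and 47. The densities were 6.45, 7.41 and 6.02 per 100 kb. The surroundings of these 3 genes were also dense, with 5 per 100 kb beside Etl4, 6.25 beside Magi1 and 3.25 beside Smyd3.

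The other genes called denser were Tenm3 and Tenm4, teneurins that join neurons to their partners, Rad51b, a homologous recombination factor, Exoc4, a subunit of the exocyst that tethers secretory vesicles, and Mast4, a serine/threonine kinase. They held 47, 32, 26, 30 and 24 sites, at 3.63, 4.33, 4.73, 4.14 and 3.99 per 100 kb. Dock1, an activator of the GTPase Rac, was the next in density with 17 sites at 3.39 per 100 kb and did not pass the test (adjusted p = 0.141, exact Poisson test). It passed without replicate 1 (adjusted p = 0.0302), without replicate 2 (0.0134) and against the mean of its own chromosome (0.0288) in the same exact Poisson test. The 95% intervals of Tenm4 (2.96 to 6.11), Rad51b (3.09 to 6.93), Exoc4 (2.80 to 5.92), Mast4 (2.56 to 5.94) and Tenm3 (2.66 to 4.82) overlap, so the order among them is not resolved.

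At the other end, 13 genes held no consensus site, and 10 of them held no interval in either replicate's own list. The longest of them was Auts2, a gene of neuronal development (chr5:131437333-132543220). Its 1106 kb carried 0 intervals in replicate 1 and 0 in replicate 2, against 16.8 consensus sites expected from the mean of chromosomes 1 to 19 (adjusted p = 1.56e-05, exact Poisson test). The call was lost against its flanks, which carried 5 sites in 400 kb (adjusted p = 0.198, exact binomial test), and with the strict q-value (adjusted p = 0.833, exact Poisson test). It was also lost by the negative binomial test, which could call no very long gene less dense even at 0 sites. A zero says only that the lists used here hold no interval there, and whether they are complete over these genes was not determined. Ppargc1a, a coactivator of mitochondrial genes, Fstl5, a secreted follistatin-like protein, Adarb2, an RNA-binding relative of the editing enzymes, Foxp2, a forkhead transcription factor, Sorcs1, a sorting receptor, and Skint5, an immunoglobulin-superfamily gene of skin and thymus, also held 0 in both replicates. Dgkb, a diacylglycerol kinase, and Cacna1c, a subunit of L-type calcium channels, held 0 and 1 intervals in replicates 1 and 2, and Cntnap5c, a neurexin-like protein, held 0 and 2. The 400 kb beside Foxp2, Skint5 and Cntnap5c also held 0 consensus sites. Beside Sorcs1 there was 1, beside Ppargc1a and Fstl5 2 each, beside Cacna1c 3, beside Dgkb 6 and beside Adarb2 7. None of these genes was called less dense with the strict q-value or, where the flanks held sites, against them. The 95% upper bounds on these 10 densities ran from 0.334 per 100 kb in Auts2 to 0.709 in Skint5. The sites expected ran from 7.92 in Skint5 to 16.8 in Auts2, and a peak list holds only what passed the authors' threshold, so weaker binding there was not detectable.

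Each of the 5 longest genes held sites. Ptprd, a receptor-type tyrosine phosphatase of synapses and the longest at 2271 kb, held 19 sites, with 22 and 27 intervals in replicates 1 and 2. Cntnap2, a neurexin-like adhesion protein (2241 kb), held 18, with 27 and 26. Macrod2, an ADP-ribose hydrolase (1998 kb), held 17, with 22 and 23. These 3 densities, from 0.803 to 0.851 per 100 kb, did not pass the test against the mean of chromosomes 1 to 19. Without replicate 2 all 3 were called less dense (adjusted p = 0.000694, 0.0203 and 0.0118 for Ptprd, Cntnap2 and Macrod2, exact Poisson test). Cntnap2 also passed against its flanks, at 0.169 times their density (adjusted p = 0.000489, exact binomial test), and with 10 kb left out at each gene end (adjusted p = 0.0278, exact Poisson test). Macrod2 was 3.41 times as dense as its flanks, the other direction, and did not pass (adjusted p = 1, exact binomial test). Lsamp, an adhesion protein of limbic neurons (2197 kb), held 11 sites and Lrp1b, a receptor of the LDL receptor family (2058 kb), held 9, and both were called less dense (adjusted p = 0.00115 and 0.000569, exact Poisson test). Both calls were lost with the strict q-value and by the negative binomial test, which could call no very long gene less dense. That of Lsamp was also lost against its flanks, at 0.668 times their density. Lrp1b had 0 sites in the 400 kb beside it, so no ratio was formed, and at 0.437 per 100 kb it was denser than its flanks. In Lrp1b one stretch of 1117 kb held no consensus site, the longest such stretch among the 216 genes, and 888 kb of the gene held no interval of either replicate. In Auts2 the whole 1106 kb was free of both.

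**Figure D3:**
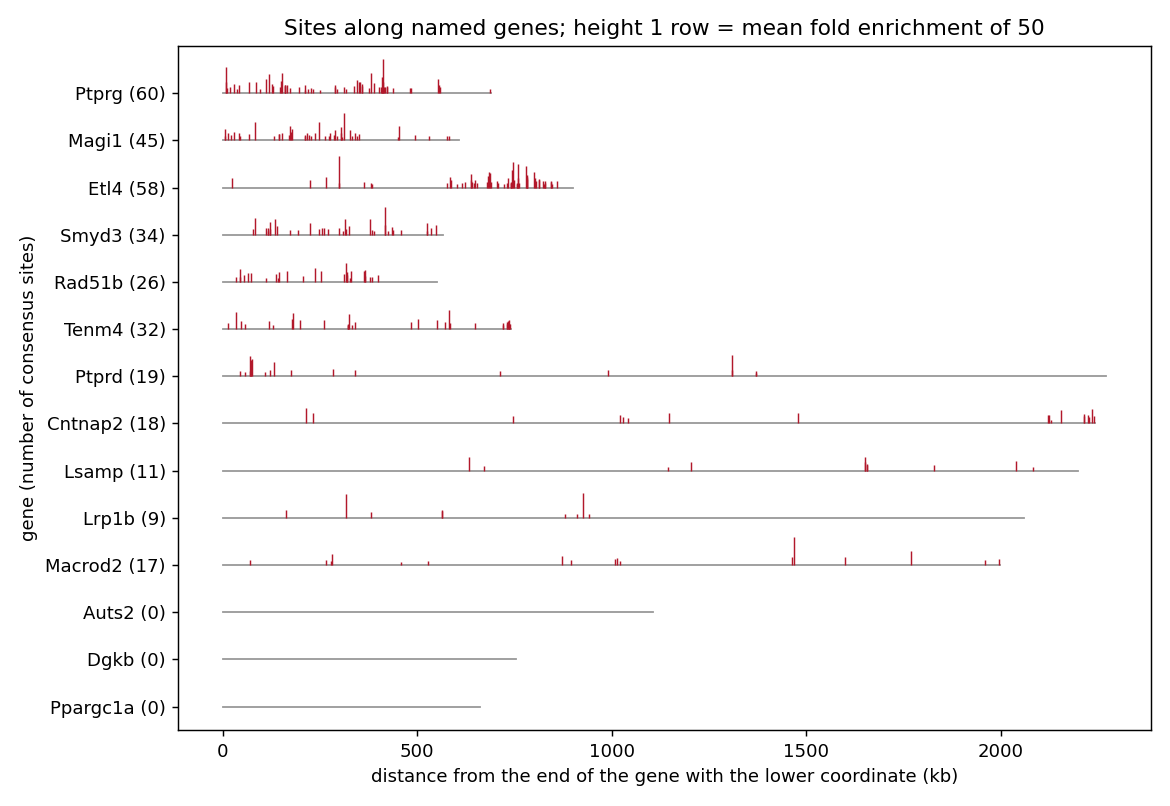
Consensus sites along the 6 densest genes, the 5 longest and the 3 longest without a site (y axis, with the number of sites), by distance in kb from the gene end of lower coordinate (x axis). Line height is the mean fold enrichment of the 2 replicates; sites of Etl4 crowd towards one end, those of Ptprg, Magi1 and Smyd3 fill most of the gene, and Auts2, Dgkb and Ppargc1a have none.

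Gene groups were compared by their counts. Of 67 listed genes of neuronal adhesion and axon guidance, 46 were very long. Of these 3 were called denser (Ptprg, Tenm3 and Tenm4), 15 less dense and 28 neither, with a median of 0.614 sites per 100 kb, against 9, 47 and 160 of all 216 genes and a median of 0.738. The less dense ones include Csmd1, a complement regulator of synapses, with 2 sites, Nrxn3, a presynaptic neurexin, with 2, and Dcc, the netrin receptor, with 3. A list of synaptic receptors, channels and associated proteins, scaffolds such as Dlg2 included, held 25 very long genes. Of these 0 were called denser and 3 less dense (Dlg2, Dpp10 and Cacna1c), with a median of 0.691 per 100 kb. The densest of them was Dpp6, an auxiliary subunit of potassium channels, with 27 sites at 2.97 per 100 kb, which did not pass the test (adjusted p = 0.0785, exact Poisson test). It passed against the mean of its own chromosome (adjusted p = 0.0266) and with 10 kb left out at each gene end (0.0397) in the same exact Poisson test, but was 0.566 times as dense as its flanks.

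Of 22 very long genes that host common fragile sites, 2 were called denser (Ptprg and Exoc4) and 6 less dense (Auts2, Dcc, Dlg2, Lrp1b, Lsamp and Naaladl2), with a median of 0.871 per 100 kb, against 4.17% and 21.8% called denser and less dense among all 216 genes. Fhit, named above for its promoter, held 30 sites at 1.86 per 100 kb and was called neither. A list of DNA- or RNA-binding regulators held 18 very long genes. Of these 0 were called denser and 2 less dense (Auts2 and Foxp2), with a median of 0.731 per 100 kb, against the same shares. The densest, Sox6, held 12 sites at 2.11 per 100 kb. The list is not complete, since it leaves out Adarb2, which was also called less dense. The lists share some genes, such as Ptprg and Auts2.

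Very long genes were also grouped by the shared start of their symbols, which is not a measure of relatedness, since it misses related genes such as Ptprg and Ptprd and joins unrelated ones such as Unc13c and Unc5d. Of 30 such groups, 9 held a pair whose intervals did not overlap, and in the others all intervals overlapped. The pairs below were chosen after their values were seen. Magi1 held 7.41 sites per 100 kb (exact 95% Poisson interval 5.40 to 9.91) and its paralog Magi2 1.35 (0.823 to 2.08). Tenm3 and Tenm4 held 3.63 and 4.33 per 100 kb, and Tenm2 held 0.651 (0.281 to 1.28). Dpp6 held 27 and Dpp10 held 2, and the replicates gave 34 and 30 intervals in Dpp6 and 4 and 4 in Dpp10. Gpc5 and Gpc6, heparan sulfate proteoglycans encoded close together on chromosome 14, held 5 and 21 sites, and each replicate gave the same order. Robo1 and Robo2, receptors for the Slit guidance cues encoded close together on chromosome 16, held 20 and 8. In each of these pairs the intervals did not overlap. Foxp1 held 8 sites and Foxp2 held 0, with intervals of 0.579 to 2.64 and 0 to 0.684 per 100 kb, which overlap. In Sox5 (1.47 per 100 kb) and Sox6 (2.11) the intervals overlap as well.

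**Figure D4:**
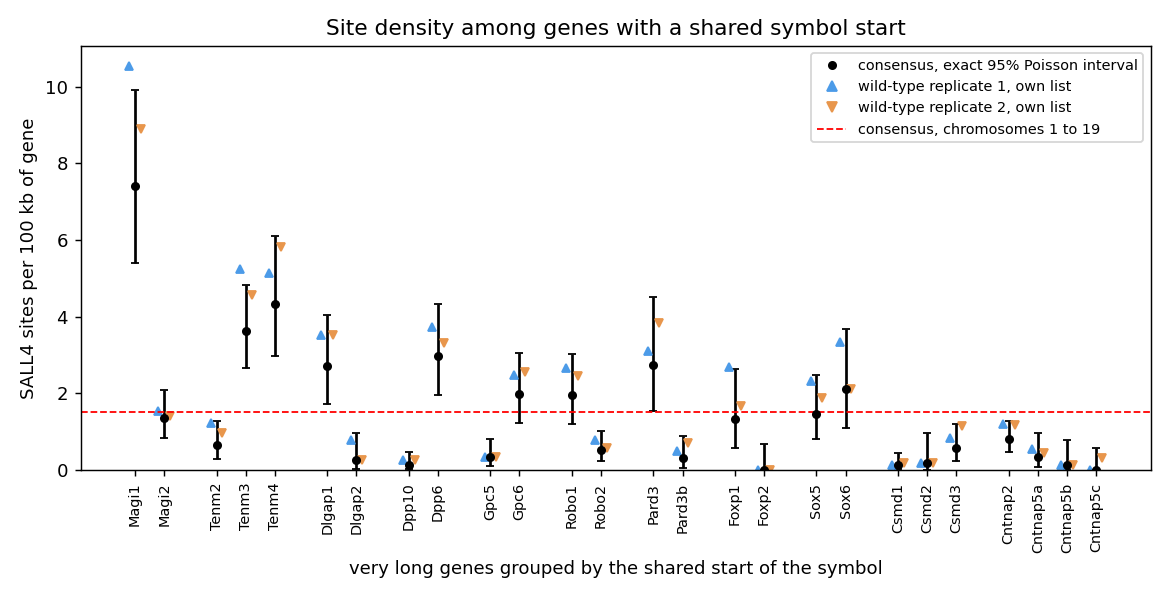
Sites per 100 kb (y axis) in very long genes of 11 groups with a shared symbol start (x axis). Black points are consensus sites with exact 95% Poisson intervals, triangles are the 2 wild-type replicates and the dashed red line is the mean of chromosomes 1 to 19; Magi1, Tenm3 and Tenm4 stand well above it while Magi2 and Tenm2 do not.

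Along the gene, sites were more frequent towards the far end. The direction of transcription was known for 169 of the 216 genes, which hold 1505 of the pairs of gene and site. Of these 39.1% (95% Wilson interval 36.7 to 41.6) lay in the first 50% of the gene, counted from the start of transcription, and 60.9% in the second. In the replicates' own lists the shares in the first 50% were 38.8% and 39.8%. In steps of 10% of the gene, the share stayed between 7.24% and 8.70% up to the middle and reached 13.6% (12.0 to 15.4) in the last step. Without the 10 densest genes the first 50% held 39.7%. Of 103 genes with at least 5 sites and a known strand, 62 had more sites in the second 50%, 37 in the first and 4 had equal numbers, and the mean share in the first was 40.9% ± 24.6 (SD over genes). Genes thus varied widely. Tenm3 had 3 of 47 sites in its first 50% and Etl4 8 of 58, whereas Ptprg had 35 of 60 and Exoc4 19 of 30.

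The direction was the opposite in shorter genes. In 538 genes of 200 to 500 kb with a known strand, 54.3% (52.5 to 56.1) of 3045 sites lay in the first 50%, with 55.0% and 54.4% in the replicates, and the last 10% of the gene held the smallest share, 7.26%. With the limit for a long gene at 300 kb the share in the first 50% was 46%, and at 800 kb it was 34%. These shares were not tested against each other. The 169 very long genes with a known strand held 9 sites between 0.5 and 10 kb from the start, or 0.561 per 100 kb (0.256 to 1.06). At the same distance from the gene end they held 26 sites, or 1.62 per 100 kb (1.06 to 2.37). The intervals just overlap, from 1.058 to 1.064. In replicates 1 and 2 the numbers of intervals were 14 and 14 at the start and 37 and 30 at the end. Farther from the start the density was 1.12 per 100 kb at 10 to 50 kb, 0.817 (0.635 to 1.03) at 50 to 100 kb, 0.911 (0.773 to 1.07) at 100 to 200 kb and 1.06 at 400 to 500 kb, and the intervals of these 4 densities overlap that at 0.5 to 10 kb. From the end it was 1.41 at 10 to 50 kb and 0.888 at 400 to 500 kb.

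**Figure D5:**
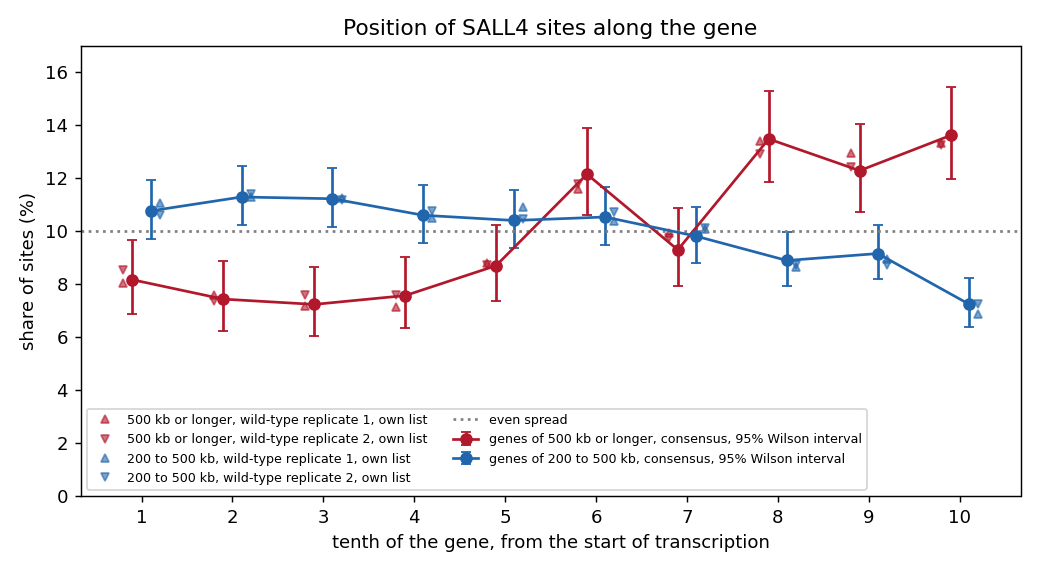
Share of sites (y axis, %) in each 10% of the gene from the start of transcription (x axis), for 169 genes of 500 kb or longer (red) and 538 genes of 200 to 500 kb (blue). Circles are consensus sites with 95% Wilson intervals, triangles the 2 wild-type replicates and the dotted line an even spread; the red share is highest in the last step, at 13.6%, and the blue share lowest there, at 7.26%.

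In strength and width the sites were close to the other consensus regions, and they lay farther apart. The median fold enrichment was 7.58 in replicate 1 and 6.80 in replicate 2 (quartiles 5.51 to 11.4 and 5.03 to 10.2), against 7.11 and 6.54 for the 34596 other regions of chromosomes 1 to 19. The median width was 344 bp (246 to 488), against 325 bp. A fold enrichment of at least 10 in both replicates was found for 437 sites, or 23.7%, against 21.0% of the others. The nearest consensus region was farther away, with a median distance of 7.75 kb against 5.70 kb, and 205 sites (11.1%) had none within 100 kb, against 5.80% of the others. Still, 1020 sites (55.2%) had another region within 10 kb, against 60.9%. The median summit of a member rested on 11 fragments in replicate 1 and 10 in replicate 2, with a lowest value of 4 in each, recovered as whole numbers from the authors' values. Intervals inside very long genes were found in the other replicate at 73.2% (71.5 to 74.9) from replicate 1 and at 79.8% (78.2 to 81.4) from replicate 2, against 70.1% and 79.3% elsewhere on chromosomes 1 to 19.

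The strongest sites were not confined to the densest genes. Ranked by the worse of the 2 replicates' ranks, the first 5 lay in Nav2, Tenm3, Ptprg, Dpp6 and Opcml, and the strongest 100 lay in 68 different genes or sets of overlapping genes. The site in Tenm3 (chr8:48751027-48752673) had fold enrichments of 45.5 and 40.8, and that in Nav2, a microtubule-associated protein of growing neurons (chr7:49337256-49338502), had 40.6 and 41.5. The site in Ptprg (chr14:11964432-11964875) had 36.3 and 35.1, that in Dpp6 (chr5:27343009-27344875) 36.2 and 32.2, and that in Opcml, an adhesion protein of neurons (chr9:27884798-27886125), 35.8 and 32.0. The SDs between replicates, from 0.595 to 3.29, are as large as many gaps between these means. The order is resolved neither between Nav2 and Tenm3, which tie in rank, nor among the other 3. The strongest sites of the other dense genes were chr2:20209221-20209655 in Etl4 (33.7 and 33.3) and chr6:93987306-93988175 in Magi1 (31.7 and 25.2). The gene table does not give exons, so whether a site is intronic was not determined. The site in Nav2 also lies in Gm51448, a long non-coding RNA gene, and of the 1847 sites 101 lie in a further gene, 78 of them in a long non-coding one.

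The genes next to the limit of 500 kb held few sites on both sides of it, apart from Dock1. Just above it, Edil3 (502 kb), Dock1 (503 kb) and Samd12 (503 kb) held 2, 17 and 2 sites. Just below it, Dnm3 (496 kb), Lrrc7 (495 kb) and Cacna1e (494 kb) held 1, 2 and 1. No consensus region had its midpoint inside a very long gene and within 500 bp of its ends, and the member closest to an end was 546 bp from it.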

How the data were processed

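The members and gene lists were chosen with earlier results of these data known. SALL4 CUT&RUN peak lists of 4 libraries were used. Per the submitters' processing notes the builds are GRCm38 and mm10, and the tools named, without roles, are Trim Galore 0.6.0, cutadapt 1.18, FastQC 0.11.8, BWA 0.7.17 and MACS2 2.1.1.20160309. Each list was called on 1 library and has no header. The deposited fold enrichment is the authors' ratio of summit pileup to local background. For each summit the authors also give a −log10 p-value and a −log10 q-value, and their score was found to equal 10 times the latter, rounded down, in every line. The lists give no read totals. Summit pileups were recovered as whole numbers for 99.6% and 99.5% of the members in replicates 1 and 2, within 0.001 in −log10 p. Fold enrichments were ranked within each list, and their mean and SD over both lists describe single sites only.

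Merged lines took the fold enrichment of their strongest summit, and overlaps needed 1 bp. Gene positions and names came from the RefSeq table of GRCm38.p6, which has no exons, and strands and sequences from RefSeq promoter windows of the same build. The windows covered 169 of the 216 genes, and the other 47 were left out of the analysis of position. A gene's density is its number of midpoints over its length without 500 bp at each end, and its expected number used the stretch from the first to the last interval of each chromosome. A site in overlapping genes counts once in totals and once in each gene, which concerns 23 sites. Poisson and Wilson intervals cover counting error only. Adjusted p-values of at most 0.05 were called. The code of the Poisson test was run on simulated Poisson numbers, which do not hold the extra spread between genes seen here. The genes named are the 10 densest, the 10 least dense (the longer first), the 5 with most sites, the 5 longest and the extremes of 4 lists, and the sites are the 5 strongest by the worse rank and the strongest in the 3 densest genes. Other genes were named after their values were seen. Not every pair of genes with a shared symbol start is printed, and one gene is not reported here. The analysis of A+T content and motifs at all sites was not run, since no genome sequence beyond the promoter windows was used here. Computations used scipy 1.17.1, pandas 2.3.3 and numpy 2.4.6 under Python 3.11.15.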

Additional observations from a re-analysis of the deposited data

How the results depend on the processing

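Since the knockout lists hold 0 intervals on chromosomes 1 to 19, no alternative could turn the excess of wild-type intervals. It ran from 9.56 (log2) with the strict q-value (−log10 q of 10 or more) to 11.32, with 11.19 to 11.32 when a library was left out. In the fit with a replicate block (libraries of 1 number paired) it was 11.26 (exact sign-flip p = 0.5, the smallest that 2 pairs allow). Both knockout counts are 0, so whether same-numbered libraries deviate together could not be checked.

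The number of very long genes called denser, 9, became 3 with the strict q-value, 37 and 2 with the length limit at 300 and 800 kb, 0 by the negative binomial test and 1 against the flanks, and was 9 to 11 with a library left out. The number called less dense, 47, became 0 at the strict q-value (20 at an unadjusted p under 0.05), 27 with a reciprocal overlap of 50%, 0 by the negative binomial test and 11 against the flanks, and was 47 to 82 with a library left out. Fewer sites, and for length fewer or more genes, enter some of these by construction. The negative binomial test could call no very long gene less dense, even one with 0 sites. For the rest the cause was not tested.

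Set against genes of 200 to 500 kb, the density ratio, 0.570, was 0.621 at the strict q-value, 0.589 and 0.497 at 300 and 800 kb and 0.599 as share of bases covered, and 0.546 to 0.570 with a library left out. To the flanks, 0.660, it was 0.712 and 0.618 at 300 and 800 kb, 0.644 as bases covered and 0.659 to 0.678 with a library left out. To sequence in no coding gene, 0.790, it was 0.954 and 0.689 at 300 and 800 kb and 0.781 to 0.805 with a library left out. All stayed below 1. The share of sites in the first 50% of the gene was 38.4% with the reciprocal overlap (38.35%), 46% and 34% at 300 and 800 kb, 40.9% with each gene counted once and 38.8% to 39.8% with a library left out. The ratio of median strength to other regions, 1.05, was 1.01 at the strict q-value (1.012), 1.07 with the reciprocal overlap, 1.01 at 300 kb (1.014), 1.00 with −log10 q as strength (1.002) and 1.05 to 1.09 with a library left out.

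Of 212 values for the 27 named genes under these alternatives, 139 kept their direction and their side of the threshold, 59 fell below it, 10 rose above it and 4 turned. Against the flanks, Macrod2 became denser (3.41 times) and Dpp6 and Sox6 less dense (0.566 and 0.703 times), and at the strict q-value Sox6 was 0.758 times the expected number. None of the 4 passed the test. Lrp1b, Cntnap5c, Foxp2 and Skint5 had 0 sites in their flanks, so they have no flank value and are not counted there. Of these, Lrp1b held 9 sites, so it too was denser than its flanks, against its call as less dense. By the negative binomial test 21 values fell below the threshold, and that test could call no very long gene less dense. Leaving out a knockout library is not counted here, since it cannot move a gene whose knockout counts are 0. Sequence alternatives were not run.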
